A study of Mus musculus with 23 samples.

Results

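The comparison of 1000 T cells with 1 ng of RNA took 6 of the 23 libraries of a mouse study, chosen by their labels alone: 3 libraries made from 1000 cells and 3 made from 1 ng of diluted RNA, over all 22488 genes of the count table. The study tested EASY-RNAseq, a low-input protocol in which poly(A) RNA is copied with an oligo-dT primer and the double-stranded cDNA is fragmented and tagged with Tn5 transposase. Both groups are labelled strain C57 and age 6-18week, and no genotype, treatment or sex is given for either. The cells are labelled spleen T cell, and the series design calls them CD3+ T cells. The RNA is called spleen RNA in the series design, while its sample labels name raw 264.7, a macrophage-like line that grows in culture. The labels do not say whether the 3 libraries of a group came from separate mice, cell aliquots or dilutions, so p-values may measure technical spread alone.

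The spleen filters blood and hosts lymphocytes. Its white pulp holds B and T cells, and its red pulp holds macrophages that take up old red cells and recycle their iron, beside red cell precursors, granulocytes and plasma cells. T cells are known by the T cell receptor, whose variable chains sit with the CD3 chains at the cell surface and pass a signal through the kinases Lck and Zap70. A CD3 selection keeps cells with that complex, so its genes check the label of the cells. The other lists describe how the materials differed, and whether other cells came along or stayed behind was not tested. In bulk libraries such as these, fewer cells of a type and less RNA per cell cannot be told apart.

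The T cell libraries held 2363975 to 2715179 counts and the RNA libraries 3665052 to 4477814. Replicates correlated at r = 0.935 to 0.938 across genes among T cell libraries and at 0.978 to 0.980 among RNA libraries, against 0.879 to 0.883 between the materials. Genes are not independent replicates, and these r values only describe the libraries. The biological coefficient of variation estimated by edgeR was 0.219 within the T cell group and 0.154 within the RNA group. Levels are given as CPM, counts scaled to a library total of 1000000, and fold changes as log2 of T cells over RNA with their standard error (SE). Every adjusted p of the comparison comes from the quasi-likelihood test of edgeR, adjusted by Benjamini-Hochberg over 12656 genes at a threshold of 0.05. The test called 2541 genes higher in T cells (20.1%) and 2525 lower (20.0%), with a median log2 fold change of 0.04 over all genes tested. The other 9832 genes had too few counts for the test, and counts of list members below are over the members tested. Each such count stands beside the 20.1% called higher and the 20.0% called lower over all genes tested.

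The cell type labels were checked first. All 8 genes of the T cell receptor complex were higher in the cells, where 20.1% of all genes tested were, and all 8 had 3 T cell libraries above 3 RNA libraries, where 26.1% of genes tested did. Cd3e, the epsilon chain of CD3, was at 439.9, 409.5 and 400.3 CPM in the T cell libraries and 93.4, 97.6 and 100.1 CPM in the RNA libraries. The groups were far apart, and its log2 fold change was 2.09 (SE 0.09, adjusted p = 2.49e-15). Trac, the constant region of the receptor's alpha chain, was at 847, 789 and 772 CPM in the T cell libraries and 195, 187 and 194 CPM in the RNA libraries, a log2 fold change of 2.05 (SE 0.08, adjusted p = 4.48e-17). Trbc2, a beta chain constant region, had the highest fold change of the complex at 2.25 (SE 0.07, adjusted p = 5.03e-18), and Cd247, the zeta chain, had the lowest at 1.78 (SE 0.13, adjusted p = 2.89e-11). The complex took 0.366% ± 0.00727 of T cell counts and 0.0863% ± 0.00110 of RNA counts (SD, n = 3 each). That is a ratio of 4.24 between the materials, and the 8 members spanned only 1.78 to 2.25 on the log2 scale.

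The RNA libraries held transcripts of many blood cell types, T cells included. In them Cd3e stood at 97.1 ± 3.38 CPM, Igkc, the kappa light chain constant region, at 10307 ± 247 CPM, Hbb-bs, an adult beta globin, at 1660.2 ± 52.2 CPM and S100a8, a neutrophil protein, at 776 ± 18.6 CPM (mean ± SD, n = 3). Macrophage genes were present as well, with Csf1r, the receptor of the macrophage growth factor, at 489 ± 48.2 CPM and Adgre1, the F4/80 antigen, at 137 ± 9.41 CPM. These levels show lymphoid, erythroid and neutrophil transcripts beside macrophage ones, which goes against a material made of a macrophage line alone. The group is called RNA in the sentences that follow, with no tissue assigned.

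**Figure D1:**
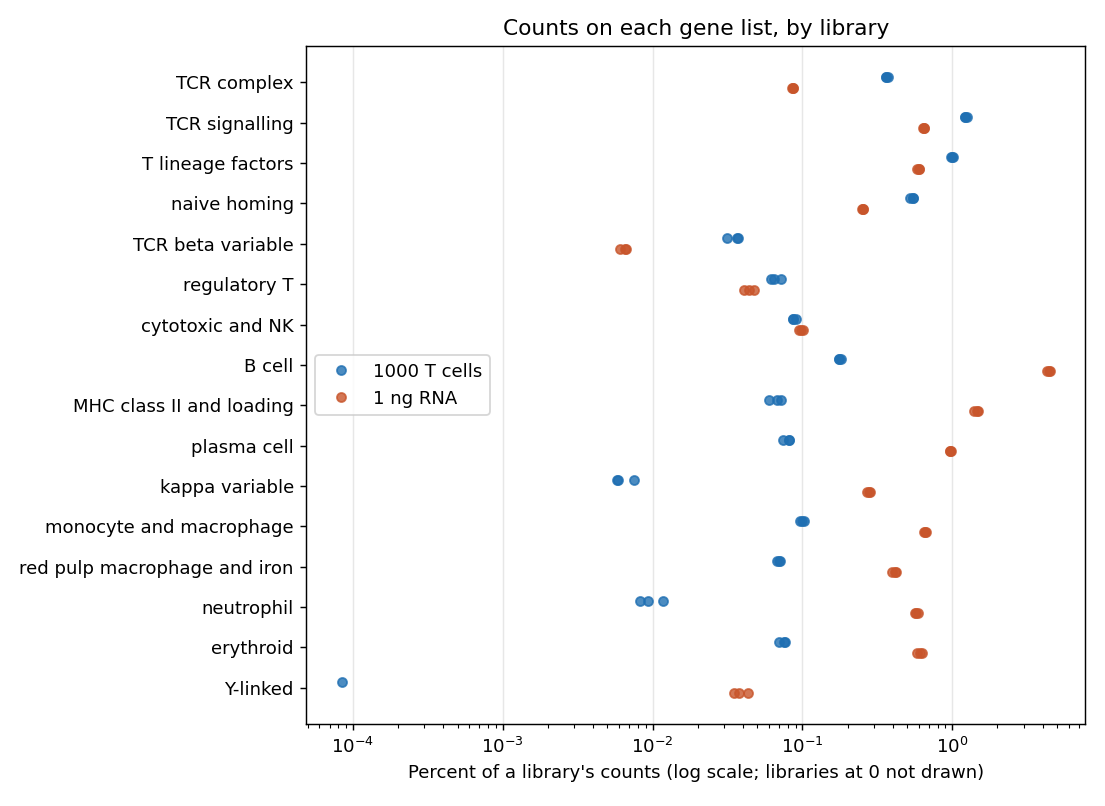
Percent of each library's counts (log scale) on the members of 16 gene lists, with 1 point per library: blue for 1000 T cells, orange for 1 ng RNA, and libraries at 0 not drawn. T cell receptor complex genes took a mean of 0.366% in T cells and 0.0863% in RNA, and B cell genes 0.177% and 4.41%.

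Downstream of the receptor, 24 of 27 signalling genes were higher and 1 was lower, with a median log2 fold change of 1.52. Lck, the kinase that starts receptor signalling, was at 957, 978 and 918 CPM in the T cell libraries and 275, 264 and 241 CPM in the RNA libraries, a log2 fold change of 1.86 (SE 0.07, adjusted p = 2.21e-16). Lat, the scaffold that Zap70 phosphorylates, had 2.14 (SE 0.10, adjusted p = 2.08e-15), and Rasgrp1, which activates Ras after receptor engagement, had 1.17 (SE 0.08, adjusted p = 1.28e-11). Ptprc, the CD45 phosphatase of all white blood cells, rose by only 0.21 (SE 0.04, adjusted p = 0.000322), with 3 T cell libraries above 3 RNA libraries.

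Both arms of the T cell lineage were represented. Cd4, the helper co-receptor, was at 419, 450.1 and 359 CPM in the T cell libraries and 139.6, 126 and 156 CPM in the RNA libraries, with 1.53 (SE 0.10, adjusted p = 6.69e-12). Cd8a and Cd8b1, the chains of the cytotoxic co-receptor, had 1.63 (SE 0.10, adjusted p = 1.03e-12) and 1.96 (SE 0.09, adjusted p = 1.96e-15). All 3 co-receptor genes were higher in every T cell library than in every RNA library. Of 9 genes for co-receptors and lineage factors 6 were higher, 2 were not called and 1 was lower. Zbtb7b, the factor of the helper lineage also known as ThPOK, was higher at 1.13 (SE 0.15, adjusted p = 8.61e-07). Runx3, the factor of the cytotoxic lineage, had a log2 fold change of 0.00 (SE 0.13, adjusted p = 0.991) with groups that overlapped. The lower member was Tbx21, T-bet, which also acts in NK cells and some B cells, at 13.5, 21.4 and 26.0 CPM in the T cell libraries and 43.2, 39.3 and 42.3 CPM in the RNA libraries, a log2 fold change of -1.04 (SE 0.26, adjusted p = 0.00231).

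Transcription factors of the T lineage were divided. Tcf7, the factor TCF1 of naive and memory T cells, was at 1746, 1760.5 and 1766 CPM in the T cell libraries and 393, 377 and 384 CPM in the RNA libraries. Its replicates differed little and its log2 fold change was 2.18 (SE 0.06, adjusted p = 1.03e-19). Lef1, its relative, had 2.28 (SE 0.09, adjusted p = 1.19e-16), Satb1, a chromatin organiser of developing T cells, had 1.47 (SE 0.07, adjusted p = 5.48e-15), and Klf2, which holds T cells quiescent, had 1.13 (SE 0.07, adjusted p = 1.3e-12). Over the list of 17 factors 8 were higher, 4 lower and 5 not called, with a median of 0.44. Of all genes tested 20.1% were higher and 20.0% lower, so the count of lower factors was near that share. The lower ones were Ikzf3 or Aiolos at -1.81, Bach2 at -0.40, Nfatc1 at -0.32 and Foxp1 at -0.30, all of them known in B cells too. Without T cell replicate 1 Nfatc1 was at -0.21 and not called. Ikzf1, Ikaros, which both lineages use, had -0.10 (SE 0.06, adjusted p = 0.198).

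Naive T cell genes were higher almost as a block. Of 13 genes for recirculation and the naive state 12 were higher and 0 were lower, with a median of 1.37. Il7r, the survival receptor for interleukin 7, was at 690.4, 723 and 697 CPM in the T cell libraries and 170.1, 176 and 194 CPM in the RNA libraries, a log2 fold change of 1.96 (SE 0.08, adjusted p = 3.25e-16). Ccr7, the chemokine receptor that leads cells to lymph nodes, had 1.23 (SE 0.08, adjusted p = 3.54e-12), and S1pr1, the exit receptor, had 0.65 (SE 0.09, adjusted p = 1.29e-06). The GIMAP genes encode small GTPases needed for lymphocyte survival, and 5 of 8 were higher with 0 lower (median 0.47), led by Gimap3 at 1.41 (SE 0.07, adjusted p = 5.06e-15).

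Regulatory T cell genes were higher in 10 of 12 cases, or in 6 with all groups of the study in 1 model. Foxp3, which defines the lineage, was at 71.5, 68.5 and 94.3 CPM in the T cell libraries and 24.4, 29.7 and 21.6 CPM in the RNA libraries, a log2 fold change of 1.61 (SE 0.21, adjusted p = 8.2e-07), and Ikzf2 or Helios had 1.25 (SE 0.16, adjusted p = 6.08e-07). Capg, an actin-capping protein that macrophages also make, was the member called lower, at -2.42. Follicular helper and activation genes split instead, with 5 of 14 higher and 4 lower. Icos, a co-stimulator, had 1.22 (SE 0.15, adjusted p = 7e-07). Cxcr5, the receptor that leads B cells and follicular helper T cells into follicles, was at 41.5, 37.2 and 31.2 CPM in the T cell libraries and 305, 340.3 and 309 CPM in the RNA libraries, a log2 fold change of -3.13 (SE 0.13, adjusted p = 3.39e-16). Bcl6 at -2.28, Cd44 at -1.83 and Lag3 at -3.47 were the other lower members; germinal centre B cells use Bcl6, and many white blood cells carry CD44.

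Of 24 cytotoxic and NK cell genes 4 were higher, 10 lower and 10 not called, with a median of -0.69. Of all genes tested 20.1% were higher and 20.0% lower, so the count of higher members was near that share. The 4 higher genes were Ctsw, a protease of killer lymphocytes, at 1.62 (SE 0.14, adjusted p = 5.61e-10), Nkg7, a granule protein, at 0.73 (SE 0.14, adjusted p = 0.000145), Klrd1 or CD94 at 1.28 (SE 0.16, adjusted p = 6.49e-07), and Cd160 at 1.11 (SE 0.29, adjusted p = 0.00339). Gzma, granzyme A, was at 15.2, 14.7 and 10.8 CPM in the T cell libraries and 67.4, 68.8 and 70.1 CPM in the RNA libraries, a log2 fold change of -2.35 (SE 0.23, adjusted p = 8.62e-09), with no overlap. Ccl5, a chemokine of memory T and NK cells, had -0.60 (SE 0.13, adjusted p = 0.000586). Prf1, the pore-forming perforin, had 0.09 (SE 0.16, adjusted p = 0.677), and its groups overlapped. Killer lectin-like receptors had 2 of 19 higher and 6 lower, beside the same shares over all genes tested.

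Variable segments of the T cell receptor were thinly covered. In the T cell libraries 21 of 22 beta segments and 79 of 108 alpha segments had a count, but only 17 and 5 of them had enough for the test. Over all 22 beta segments, tested or not, the counts came to 0.0349% ± 0.00320 of T cell counts and 0.00640% ± 0.000308 of RNA counts, and over all 108 alpha segments to 0.0167% ± 0.00237 and 0.00319% ± 0.000214 (SD, n = 3 each). Among those tested, 15 beta and 5 alpha segments were called higher and 0 lower, but a segment with few counts in RNA could enter the test only through its T cell counts, so these calls are no support of their own. Trbv13-2 was at 30.0, 34.3 and 44.7 CPM in the T cell libraries and 11.0, 7.82 and 3.55 CPM in the RNA libraries, a log2 fold change of 2.25 (SE 0.35, adjusted p = 1.42e-05), and it held 10.4% of the beta segment counts of the T cell group. The leading beta segment of the RNA group, Trbv19, held 14.2% of its counts. These segments have near copies, so reads may be divided among them. With the replicate number as a block 2 alpha segments passed, and without T cell replicate 1 or RNA replicate 1, 2 or 3 the count was 9, 8, 8 or 9, since more segments then entered the test.

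**Figure D2:**
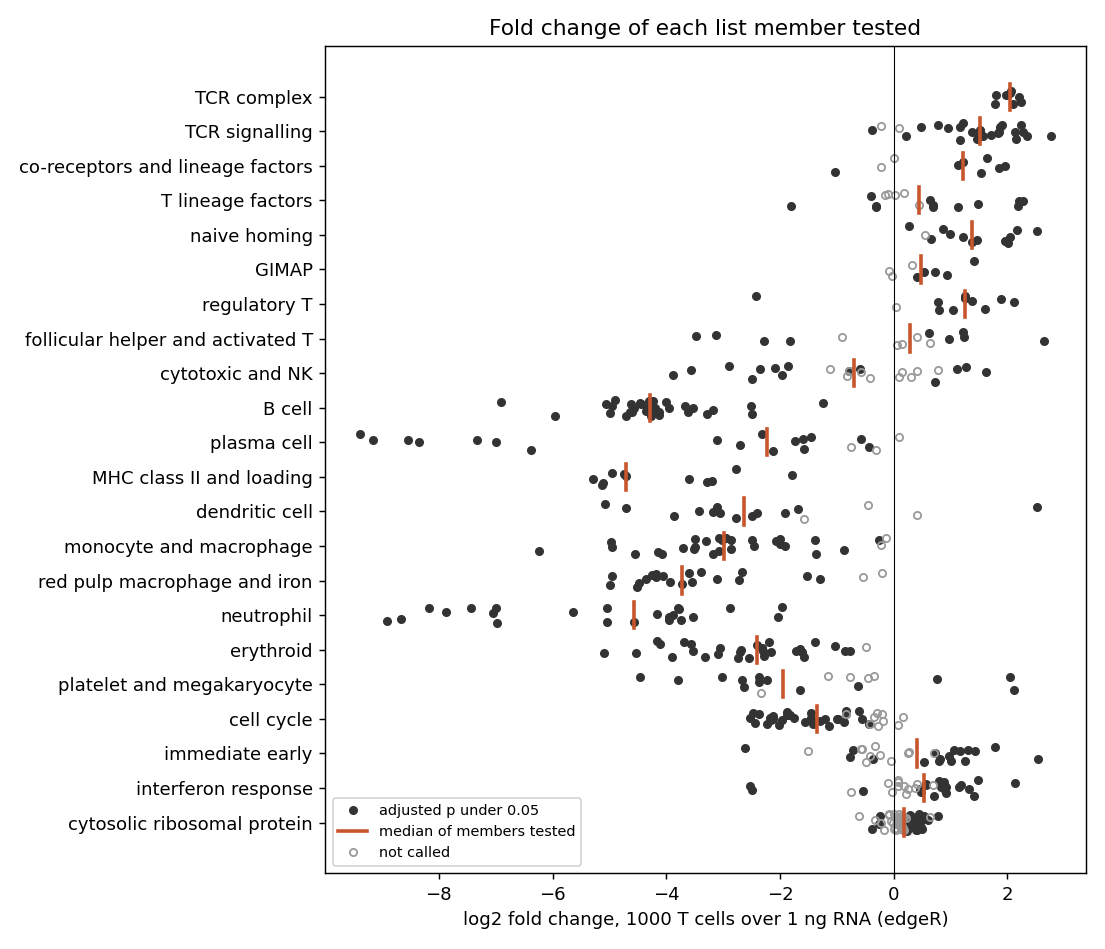
log2 fold change of 1000 T cells over 1 ng RNA for each member tested of 22 lists, filled where the adjusted p was under 0.05 and open otherwise, with an orange bar at the median. The 8 receptor complex members lie between 1.78 and 2.25, while the 34 B cell members lie between -6.91 and -1.23.

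All 34 B cell genes were lower in the T cells, where 20.0% of all genes tested were, with a median of -4.29. The list took 0.177% ± 0.00216 of T cell counts and 4.41% ± 0.0952 of RNA counts (SD, n = 3 each). Ms4a1, CD20, was at 50.8, 78.4 and 47.9 CPM in the T cell libraries and 1419, 1379.9 and 1489 CPM in the RNA libraries, a log2 fold change of -4.60 (SE 0.12, adjusted p = 1.55e-20), and Cd79a, a signalling chain of the B cell receptor, had -4.63 (SE 0.11, adjusted p = 4.17e-21). Ighm, the mu heavy chain constant region, was at 777, 786 and 775 CPM in the T cell libraries and 18461, 18880.4 and 17659.8 CPM in the RNA libraries, with -4.57 (SE 0.04, adjusted p = 5.25e-30). Igkc fell furthest of the list, from 10307 ± 247 CPM in RNA to 86.1 ± 6.07 CPM in T cells, a log2 fold change of -6.91 (SE 0.06, adjusted p = 2.84e-30). B cell genes were low but at 0 counts in none of the 34 cases.

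Variable segments of antibody genes took a smaller share of the T cell counts. Over all 100 kappa segments the counts came to 0.00642% ± 0.000928 of T cell counts and 0.276% ± 0.00456 of RNA counts, and over all 113 heavy chain segments to 0.00477% ± 0.000202 and 0.127% ± 0.00281 (SD, n = 3 each). Too few counts kept 34 kappa and 59 heavy chain segments out of the test. Of those tested, 66 of 66 and 53 of 54 were called lower, but with few counts in T cells they entered the test through the RNA libraries, so the direction of these calls was largely set by the filter. Ighv5-17 had 0 counts in T cells and 65.6 ± 5.46 CPM in RNA, at least 167-fold lower with the T cell group set at 3 counts. Igkv3-4 had 2 counts in T cells and 2767 in RNA, a ratio of CPM of 832 with a 95% exact interval of 230.1 to 6875. In RNA, 96 of 100 kappa segments had a count and the leading one held 7.96% of kappa segment counts. Reads from near copies may again be shared. Floors and intervals cover counting error only and take each count as independent, which fails if both mates of a pair were counted.

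Plasma cell genes, which serve antibody secretion, were lower in 17 of 20 cases with 0 higher (median -2.22). Jchain, which joins IgA and IgM multimers, was at 2.54, 3.68 and 2.00 CPM in the T cell libraries and 1536, 1552 and 1706 CPM in the RNA libraries, a log2 fold change of -9.16 (SE 0.13, adjusted p = 5.82e-26). Ighg2c, an IgG heavy chain, had the largest fall of the list at -9.39 (SE 0.11, adjusted p = 1.86e-27), and Igha, the IgA heavy chain, had -8.53 (SE 0.19, adjusted p = 1.18e-21). In the T cell libraries each of these 3 genes stayed at 6.39 CPM or less, while every RNA library held 1109 CPM or more of each. Of the 25 genes for the secretory pathway and the unfolded protein response 12 were lower and 0 higher, with a median of -0.41.

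Antigen presentation by MHC class II separated the materials as well. All 11 class II and loading genes were lower, with a median of -4.71. Cd74, the invariant chain, was at 195, 220.2 and 185 CPM in the T cell libraries and 7073, 7153 and 6767 CPM in the RNA libraries, a log2 fold change of -5.14 (SE 0.06, adjusted p = 2.3e-27). H2-Aa, H2-Ab1 and H2-Eb1, the class II chains, had -4.96, -5.12 and -5.28. Dendritic cell genes were lower in 12 of 16 cases. The 1 higher gene there was Ccr9, a gut-homing receptor of plasmacytoid dendritic cells and of T cells, at 124, 139 and 103 CPM in the T cell libraries and 16.1, 26.6 and 20.7 CPM in the RNA libraries, a log2 fold change of 2.52 (SE 0.19, adjusted p = 1.16e-10). Class I genes, which all nucleated cells use, had 5 of 21 higher and 6 lower with a median of 0.01, near the shares over all genes tested (20.1% and 20.0%); H2-K1 had 0.53 (SE 0.04, adjusted p = 2.93e-10) and Nlrc5, the class I transactivator, had 0.67 (SE 0.09, adjusted p = 2.63e-06).

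Macrophage programs were lower. Of 30 monocyte and macrophage genes 28 were lower and 0 higher, with a median of -2.98. Lyz2, lysozyme, was at 19.0, 17.7 and 16.0 CPM in the T cell libraries and 1336, 1329 and 1274 CPM in the RNA libraries, a log2 fold change of -6.23 (SE 0.10, adjusted p = 6.46e-25). Csf1r was at 33.4, 44.6 and 35.2 CPM in the T cell libraries and 467, 544 and 456 CPM in the RNA libraries, a log2 fold change of -3.70 (SE 0.12, adjusted p = 4.39e-18). Red pulp macrophage and iron genes had 19 of 21 lower and 0 higher (median -3.72). Vcam1, an adhesion molecule of red pulp macrophages, had -4.06 (SE 0.12, adjusted p = 5.85e-19), Slc40a1, the iron exporter ferroportin, had -4.17 (SE 0.20, adjusted p = 9.5e-15), and Hmox1, which opens haem, had -4.95 (SE 0.15, adjusted p = 1.06e-18). Toll-like receptor genes were lower in 11 of 16 cases, and Cd180, a Toll-like receptor homologue of B cells, fell by 4.83 on the log2 scale.

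Neutrophil genes were low in the T cells. All 26 members together, tested or not, took 0.00974% ± 0.00175 of T cell counts and 0.578% ± 0.0149 of RNA counts (SD, n = 3 each). Of the 26, 23 had enough counts for the test and those 23 were lower. With few counts in T cells they entered the test mostly through the RNA libraries, so the direction of these calls was largely set by the filter. S100a8, a subunit of calprotectin, was at 0, 3.68 and 0.799 CPM in the T cell libraries and 755, 791 and 782 CPM in the RNA libraries, a log2 fold change of -8.92 (SE 0.22, adjusted p = 6.83e-21). Its partner S100a9 had -8.17 (SE 0.14, adjusted p = 8.56e-24). Ngp and Ltf, proteins of the secondary granules, had -7.87 and -7.44. Mpo, myeloperoxidase, was uneven across the T cell libraries, at 14.4, 5.89 and 0.799 CPM in the T cell libraries and 104, 104 and 75.9 CPM in the RNA libraries. Elane, neutrophil elastase, had 2 counts in T cells and 496 in RNA, a CPM ratio of 149 with a 95% exact interval of 41.1 to 1235.

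Red cell genes were lower in 30 of 31 cases, with a median of -2.40 and 0 higher. Hbb-bs was at 71.1, 71.1 and 74.3 CPM in the T cell libraries and 1664, 1710.2 and 1606 CPM in the RNA libraries. The T cell replicates were nearly equal, and the log2 fold change was -4.53 (SE 0.08, adjusted p = 3.21e-24). Hba-a1, an alpha globin, had -3.90 (SE 0.10, adjusted p = 2.84e-20), and Slc4a1, the band 3 anion exchanger, had -3.68 (SE 0.13, adjusted p = 1.5e-17). The globins have near copies and their reads may be shared. Of 9 haem synthesis genes 5 were lower and 0 higher.

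**Figure D3:**
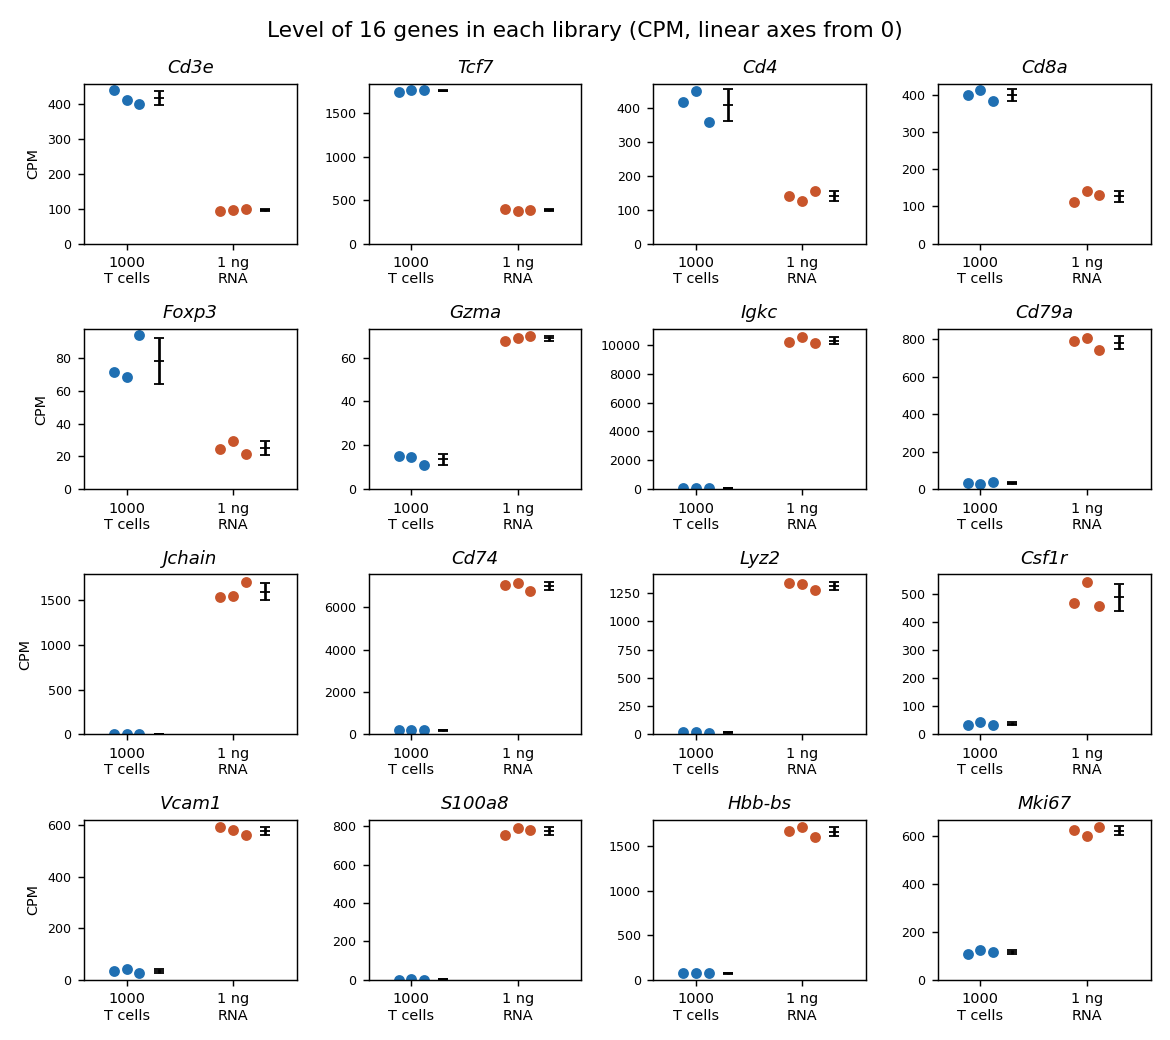
CPM of 16 genes in each library, with 3 blue points for 1000 T cells, 3 orange points for 1 ng RNA, and a black bar for mean ± SD; each axis is linear and starts at 0. For each gene shown the materials did not overlap, with Cd3e at 400.3 CPM or more in T cells and at 100.1 CPM or less in RNA, and Gzma the other way.

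Promoters are shown for 4 genes of programs that moved together: a T cell gene, 2 B cell genes and a red cell gene. They are RefSeq windows of 300 bases on GRCm38.p6, from 250 bases before to 50 bases after a transcript start, printed 5′ to 3′ along the gene's strand. Capitals mark the first match to a motif on either strand: GGAAGT for ETS factors in Cd3e and Cd79a, the octamer ATGCAAAT in Blnk, and AGATAA for GATA factors in Hbb-bs. The genes were picked after their matches were seen. Cd3e lies at chr9:45009562-45009861 on the minus strand, Cd79a at chr7:24897247-24897546 on the plus strand, Blnk at chr19:40994172-40994471 and Hbb-bs at chr7:103827879-103828178, both on the minus strand.
Cd3e: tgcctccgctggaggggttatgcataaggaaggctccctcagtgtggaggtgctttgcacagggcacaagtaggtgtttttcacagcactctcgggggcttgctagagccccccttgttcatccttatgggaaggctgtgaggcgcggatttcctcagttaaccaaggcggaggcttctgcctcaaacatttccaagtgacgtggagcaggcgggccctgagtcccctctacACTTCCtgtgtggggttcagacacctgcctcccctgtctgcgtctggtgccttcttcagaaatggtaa
Cd79a: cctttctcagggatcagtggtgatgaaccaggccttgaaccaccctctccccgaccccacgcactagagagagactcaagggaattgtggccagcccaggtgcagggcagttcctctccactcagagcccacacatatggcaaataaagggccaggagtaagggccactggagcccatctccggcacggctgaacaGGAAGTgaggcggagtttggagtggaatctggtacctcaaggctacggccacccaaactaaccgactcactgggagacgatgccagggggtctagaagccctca
Blnk: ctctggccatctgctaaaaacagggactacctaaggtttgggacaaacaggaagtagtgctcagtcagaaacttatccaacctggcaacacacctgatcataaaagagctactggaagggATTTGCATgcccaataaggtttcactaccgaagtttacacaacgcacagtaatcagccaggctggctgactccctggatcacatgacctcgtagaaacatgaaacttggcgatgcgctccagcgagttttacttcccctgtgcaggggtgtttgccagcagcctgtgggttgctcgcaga
Hbb-bs: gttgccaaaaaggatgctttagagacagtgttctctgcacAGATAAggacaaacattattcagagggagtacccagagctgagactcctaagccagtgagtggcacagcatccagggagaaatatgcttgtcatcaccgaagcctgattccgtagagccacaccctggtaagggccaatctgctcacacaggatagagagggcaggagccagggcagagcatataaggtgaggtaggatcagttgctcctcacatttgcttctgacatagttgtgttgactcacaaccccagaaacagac

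Of the genes in each list with a promoter in the table, 10 of 23 receptor complex and signalling genes (43.5%) and 10 of 22 B cell genes (45.5%) held the ETS letters, against 26.5% of all 27025 genes. The same letters stood in 14 of 24 neutrophil genes and in 2 of 23 erythroid genes. The GATA letters stood in 9 of 23 erythroid promoters (39.1%), in 6 of 24 neutrophil promoters, in 5 of 23 receptor complex and signalling promoters (21.7%), in 0 of 22 B cell promoters and in 12.7% of all genes. The octamer, known from antibody gene promoters, stood in 2 of 22 B cell genes (9.09%), in 0 genes of the other 3 lists and in 1.97% of all genes. TGTGGT for RUNX factors stood in 30.4% of receptor complex and signalling genes and of erythroid genes, in 6 of 24 neutrophil genes, in 22.7% of B cell genes and in 18.9% of all genes. A match is a run of letters and no evidence of binding. Blnk, an adaptor of the B cell receptor, was at 16.5, 13.3 and 13.2 CPM in the T cell libraries and 339, 295 and 303 CPM in the RNA libraries, a log2 fold change of -4.46 (SE 0.15, adjusted p = 3.85e-18).

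The 4 Y-linked genes measured were found in the RNA and almost absent from the cells. Ddx3y, a Y-encoded RNA helicase, was at 0 in the 3 T cell libraries and at 162, 161 and 194 CPM in the RNA libraries. It was at least 432-fold lower in T cells, Eif2s3y at least 211-fold and Uty at least 121-fold, each against a floor of 3 counts over the T cell group. Kdm5d had 2 counts in T cells and 1042 in RNA, a CPM ratio of 313 with a 95% exact interval of 86.5 to 2591. The materials thus differed in these genes beside cell type, and donor sex is not in the labels. A difference between donors and one between cell types cannot be told apart for other genes.

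Most proliferation genes were lower. Of 40 cell cycle genes 31 were lower in T cells and 0 higher, with a median of -1.34. Mki67, the Ki-67 antigen, was at 107, 123 and 117 CPM in the T cell libraries and 625, 601 and 637 CPM in the RNA libraries, a log2 fold change of -2.43 (SE 0.09, adjusted p = 2.72e-17). Top2a, the topoisomerase of dividing cells, had -1.88 (SE 0.11, adjusted p = 7.83e-13). Pcna, a replication clamp also used in repair, had -0.18 (SE 0.11, adjusted p = 0.218), and its groups overlapped. Of 24 replication-dependent histone genes tested 13 were lower and 0 higher, or 7 and 6 lower without RNA replicate 1 and 2, although oligo-dT priming captures few of these transcripts, which lack a poly(A) tail.

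Immediate early genes, which cells switch on soon after a stimulus, had 13 of 28 higher and 4 lower, with a median of 0.41. Junb, an AP-1 subunit, was at 715, 609.9 and 597 CPM in the T cell libraries and 296, 293 and 261 CPM in the RNA libraries, a log2 fold change of 1.16 (SE 0.08, adjusted p = 3.26e-11). Jun and Fos, its partners, had 2.53 (SE 0.14, adjusted p = 2.85e-13) and 1.78 (SE 0.11, adjusted p = 1.05e-12), and were named after their values were seen. Egr3, a factor induced through antigen receptors, was lower at -2.61 (SE 0.33, adjusted p = 5.2e-07). Zfp36l1 and Btg2, which restrain proliferation, had -0.72 and -0.37, and Fosl2 had -0.77 (SE 0.30, adjusted p = 0.0451), a call lost in 11 of 17 alternatives with a fold change of -0.79 to -0.71. Heat shock genes had 1 of 13 higher and 5 lower, and Hspa8, the constitutive chaperone, had 0.10 (SE 0.05, adjusted p = 0.14).

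Interferon response genes had 17 of 32 higher and 3 lower, with a median of 0.52. The lower genes were Rsad2, viperin, at -2.52 (SE 0.23, adjusted p = 3e-09), Ifi204 at -2.49 and Stat2 at -0.55. With all groups of the study in 1 model, 11 members were called higher. Common gamma chain cytokine genes had 7 of 16 higher and 2 lower, among them Il2rb, the interleukin 2 receptor beta chain, at 0.66 (SE 0.09, adjusted p = 2.25e-06). Integrins were divided: Itgb7 at 1.29 (SE 0.07, adjusted p = 1.65e-13) and Itgae, which pairs with it, at 2.08 (SE 0.19, adjusted p = 2.75e-09) were among 5 of 16 called higher, and 7 were lower. Chemokine receptors had 4 of 17 higher and 10 lower, and besides Ccr7 and Ccr9 the higher ones were Cxcr6 at 1.12 and Ccr4 at 2.36. The groups of Ccr4 overlapped, and without T cell replicate 3 or RNA replicate 2 or 3 it was at 1.44, 2.00 or 2.09 and not called, nor was it called, at 2.34, with all groups in 1 model.

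Ribosomal protein genes were slightly higher in T cells. Of 80 tested 41 were higher and 3 lower, and the median of 0.18 stood beside 0.04 for all genes. They took 5.44% ± 0.0308 of T cell counts and 4.53% ± 0.0767 of RNA counts (SD, n = 3 each). The lower members were Rps21, Rpl38 and Rpl37 at -0.25, -0.37 and -0.25. With all groups in 1 model 25 were called higher, and none of these 3 was called lower. Mitochondrially encoded genes had 1 of 12 higher and 5 lower, and nuclear genes for oxidative phosphorylation had 2 of 76 higher and 3 lower, so 71 of those 76 were not called. Without RNA replicate 1 only 1 of the 76 was lower. Glycolysis genes had 3 of 20 higher and 8 lower, or 5 lower without RNA replicate 1.

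More genes were seen in the cells than in the RNA. After every library was thinned to 2363975 counts, 18704 ± 165 genes had at least 1 count in T cells and 15359 ± 126 in RNA (mean ± SD, n = 3 each). The difference of 3345 genes gave an exact two-sided permutation p of 0.1, the smallest that 3 against 3 libraries allow. At 10 counts or more the difference was 1491 genes. Odorant and pheromone receptor genes, which are active in sensory neurons of the nose, were among those seen: 75.1% to 76.9% of 1464 such genes had a count in a T cell library and 11.3% to 12.6% in an RNA library. They took 0.367% ± 0.00478 of T cell counts and 0.0193% ± 0.00172 of RNA counts (SD, n = 3 each). Repeat-like predicted genes moved with them: 12 genes around Gm10800 took 6.77% ± 0.114 of the T cell counts and 0.478% ± 0.0353 of the RNA counts (SD, n = 3).

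Many of the genes called higher in T cells stood at the level of those receptor genes. The 95th percentile of the receptor genes in T cells was 1.48 CPM per kb of exon. At or under it lay 764 of the 2537 genes called higher with a known length (30.1%). Of these 764, 115 were receptor genes themselves, which the cut by its making leaves mostly under it. Of the higher members of the T cell lists 0 did, whereas 14 of 16 collagen genes, 12 of 18 potassium channel genes, 4 of 6 stroma genes (10 stroma genes were called without T cell replicate 1) and 1 of 3 platelet genes did. The test took in 35 of 44 collagen, 38 of 94 potassium channel, 23 of 46 stroma and 137 of 1464 receptor genes. Genes at this level with few counts in RNA could enter the test only through their T cell counts. The direction of their calls was thus largely set by the filter. The largest rises by fold all had 0 counts in RNA: Fam135b was at 9.31, 30.2 and 13.6 CPM in T cells, at least 76.5-fold higher, Vmn2r23, a pheromone receptor, at least 72.6-fold, and Col11a1, a cartilage collagen, at least 65.4-fold. Across 12644 genes, log2 fold change and exon length had a Spearman rho of 0.181, a description over genes that share libraries. What part of the other calls such signal makes up was not tested.

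**Figure D4:**
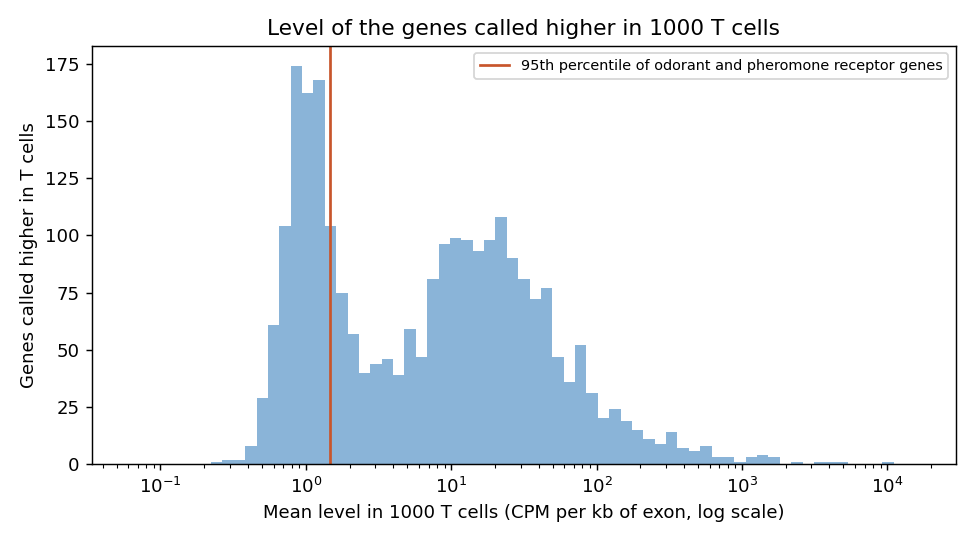
Histogram of mean level in 1000 T cells (CPM per kb of exon, log scale) for the 2537 genes called higher with a known exon length; the orange line is the 95th percentile of odorant and pheromone receptor genes, 1.48. The line leaves 764 genes at or left of it and 1773 to the right. Levels continue across it, so it is a cut and no gap between groups of genes. Of the 131 receptor genes called higher, 115 lie at or left of it. The line was set from the receptor genes, so their own place beside it is no result.

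The contrast was then set against the same contrast at the next inputs, 10000 cells against 5 ng and 500 cells against 0.5 ng, which share no library with it. The difference between contrasts passed edgeR's interaction test for 209 of 15190 genes (1.38%) beside the larger input and for 182 of 15228 (1.20%) beside the smaller. The T cell receptor complex had 0 of 8 members in either set, also 0 at an unadjusted p under 0.05, and Cd3e had interactions of 0.04 (SE 0.11, adjusted p = 0.928) and 0.07 (SE 0.15, adjusted p = 0.903). Without replicate 3 of the 10000-cell group, or replicate 1, 2 or 3 of the 5 ng group, the first count was 129, 111, 122 or 116. Without replicate 2 of the 0.5 ng group, or replicate 1 or 2 of the 1 ng group, the second was 110, 108 or 96. Positive values mean a larger T cell to RNA ratio at 1000 cells.

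Red cell genes differed from the larger input. Of 32 tested 12 had a positive interaction, where 0.632% of all genes did, and 0 were negative. Hbb-bs was at 71.1, 71.1 and 74.3 CPM in 1000 cells and at 19.3 ± 2.61 CPM in 10000 cells, while RNA stood at 1660.2 ± 52.2 and 1729 ± 42.5 CPM (SD, n = 3 each). Its interaction was 2.02 (SE 0.11, adjusted p = 5.83e-18), Hba-a1 had 2.38 (SE 0.14, adjusted p = 3.03e-16), and Aqp1, the red cell water channel, had 2.98 (SE 0.36, adjusted p = 4.35e-07). The share of red cell genes in T cells was 0.0740% ± 0.00405 at 1000 cells, 0.0433% ± 0.000995 at 10000 and 0.0535% ± 0.00142 at 500. Ribosomal protein genes had 18 of 80 positive and mitochondrially encoded genes 5 of 12, with 0 negative in both lists. Beside the smaller input 0 of 80 ribosomal genes were positive and 1 was negative, and 7 of 13 mitochondrially encoded genes were positive, where 0.663% of all genes were. Class II genes had 3 of 11 negative against the larger input, where 0.744% of all genes were, with Cd74 at -0.54 (SE 0.06, adjusted p = 1.9e-07). Of 23 neutrophil genes 3 were negative, all of them primary granule proteases or peroxidase: Elane, Prtn3 and Mpo, the last with -1.48 (SE 0.38, adjusted p = 0.03).

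Beside the smaller input the antibody genes stood out. Igha was at 2.54, 0.737 and 6.39 CPM in 1000 cells but at 2471, 2429 and 2324 CPM in 500 cells, above all 3 libraries of 0.5 ng RNA at 978 to 1138. Its interaction was -9.69 (SE 0.19, adjusted p = 6.16e-34). Jchain, at 288 to 358 CPM in 500 cells, had -6.66 (SE 0.16, adjusted p = 2.78e-30), and Igkc had -4.00 (SE 0.06, adjusted p = 6.61e-38). Of 34 B cell genes 12 were negative, where 0.532% of all genes were, as were 5 of 21 plasma cell genes and 7 of 11 class II genes. So B cell genes took 0.177% ± 0.00216 of counts at 1000 cells and 0.344% ± 0.00944 at 500. Single antibody genes weigh heavily in such shares: Igkc, a member of this list, was at 79.1, 88.8 and 90.3 CPM in 1000 cells and at 1205, 1233 and 1185 CPM in 500 cells.

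Macrophage genes went the other way beside the smaller input. Of 22 red pulp macrophage genes 7 were positive and 0 negative, and of 30 monocyte and macrophage genes 5 were positive and 0 negative, where 0.663% of all genes were positive. Csf1r was at 33.4, 44.6 and 35.2 CPM in 1000 cells and at 8.04, 3.50 and 7.20 CPM in 500 cells, with an interaction of 2.51 (SE 0.24, adjusted p = 1.37e-09). C1qa, a complement subunit made by macrophages, had 0 counts at 500 cells and 50 at 1000. Beta chain segments had 7 of 17 positive, and their share differed between inputs in both materials. In RNA they took 0.0185% ± 0.00257 of counts at 0.5 ng and 0.00640% ± 0.000308 at 1 ng. In T cells they took 0.0239% ± 0.000516 at 500 cells and 0.0349% ± 0.0032 at 1000. Across 500, 1000 and 10000 cells the genes of other cell types thus followed no common order.

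**Figure D5:**
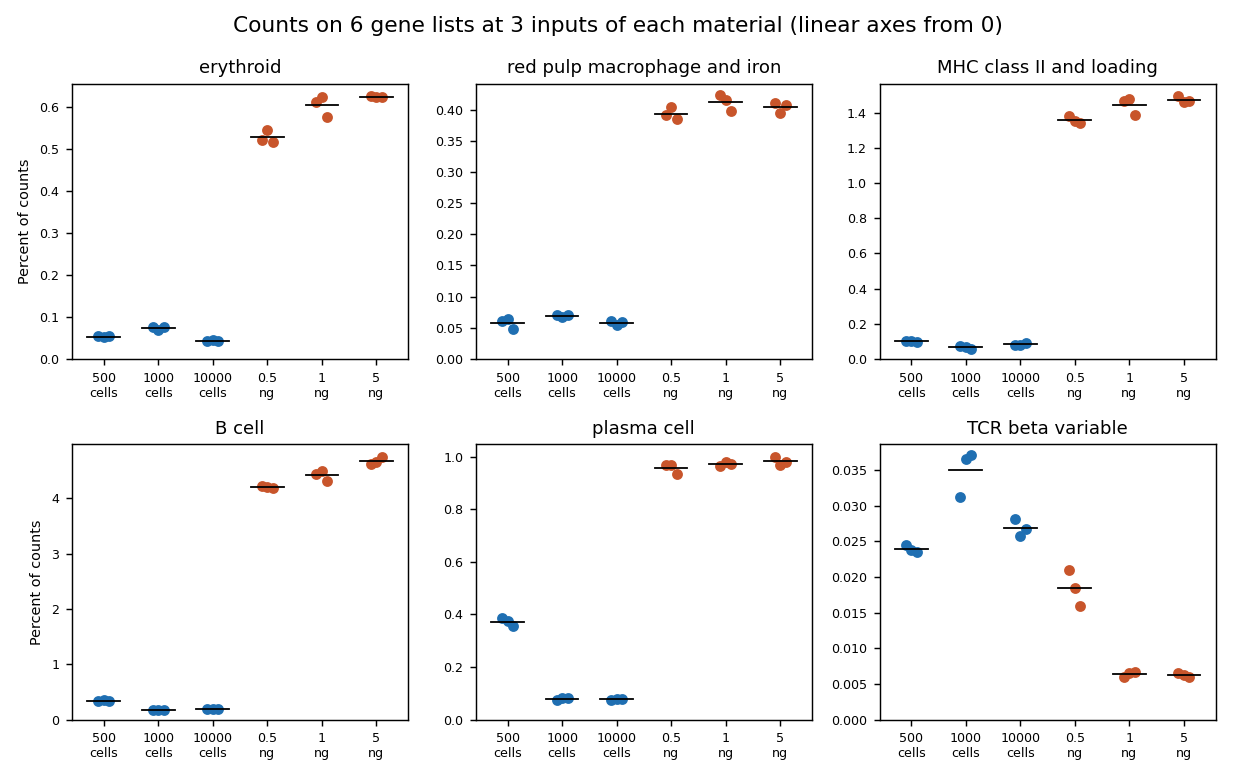
Percent of counts on 6 gene lists in each of 18 libraries, 3 per input, with blue for T cells, orange for RNA and a black line at the mean; axes are linear from 0. Red cell genes in T cells peak at 1000 cells (0.0740%), plasma cell genes in T cells are highest at 500 cells (0.373%), and beta chain segments in RNA are highest at 0.5 ng (0.0185%). The plasma cell share at 500 cells includes Igha at 2324 to 2471 CPM.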

How the data were processed

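Poly(A) RNA was measured in 3 libraries of 1000 T cells and 3 of 1 ng RNA. The authors deposited whole-number counts for 22488 gene symbols, with no normalization. HISAT2 2.1.0, featureCounts and the build mm8 are listed per the submitters' processing notes, and strand and mate settings are not given in the sources used here. Of each library's nonzero counts 61.0% to 63.3% were even, so both mates of a pair may be counted. Intervals and floors cover counting error only and take each count as independent. If both mates were counted, the intervals are too narrow and the fold bounds set by the floor are too large. edgeR 4.0.16 in R 4.3.3 (TMM, filterByExpr, quasi-likelihood test, Benjamini-Hochberg over all genes tested, threshold 0.05) gave the calls, on these 6 libraries or, for interactions, 12, and was tested on simulated data. Alternatives used DESeq2 1.42.0 and voom in limma 3.58.1. The 50 gene lists and members were chosen with earlier results of these data known. Named genes are the 10 largest rises and falls of at least 10 CPM without overlap, each list's 5 highest members, members against their list's direction, 6 interactions each way, and set markers; Jun, Fos, Mpo and Blnk were added after their values were seen. Some genes that this rule names are not reported here. Exon lengths came from GENCODE M21 (GRCm38), and promoters from RefSeq. No pairing by replicate number was seen: same-numbered residuals correlated at -0.00543, 0.000391 and 0.0114, and differently numbered ones at -0.0152 to 0.0154. Residuals that carry counting noise cannot exclude a pairing.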

Additional observations from a re-analysis of the deposited data

Results flagged for a closer look

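Several genes gave a T cell to RNA difference at 1000 cells and 1 ng that differed from the same difference at another input, by the interaction test of edgeR with Benjamini-Hochberg adjustment; values are interactions on the log2 scale. Beside 10000 cells and 5 ng, positive ones were red cell genes, with Aqp1 at 2.98, Tspan33 at 2.60, Hemgn at 2.58, Hba-a1 at 2.38 and Hbb-bs at 2.02. Positive too were the macrophage genes Clec4n at 2.69, Csf1r at 1.19 and Vcam1 at 0.99. The 2 macrophage lists differed, however. Of 30 monocyte and macrophage genes tested 1 was positive and 1 negative. Of 22 red pulp macrophage and iron genes 3 were positive and 0 negative, where 0.632% of all genes tested were positive. The last positive genes named were 2 seen mainly in T cell libraries, Fam135b at 5.87 and Pcdh15 at 3.35. Negative ones were Thbd at -6.81, Ifitm6 at -6.06, Mcemp1 at -5.93, Col5a2 at -4.48, Elane at -4.07, Lrrc18 at -3.14 and Cd74 at -0.54. Thbd, Ifitm6 and Mcemp1 had 0 counts in 1000 T cells and Fam135b had 0 in 1 ng RNA, so the size of these 4 values depends on the prior count and is no bound. Elane was near the floor too, at 0.846, 0 and 0 CPM in 1000 T cells. Col5a2 lost its call in the comparison of 1000 cells with 1 ng in 6 of the 15 alternatives that tested it.

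Beside 500 cells and 0.5 ng, antibody, plasma cell and B cell genes were negative: Igha at -9.69, Jchain at -6.66, Igkc at -4.00, Ighg2c at -1.52, Cd74 at -1.02, Cd79a at -0.90 and Ighm at -0.25. Other negative values were Scn1a at -6.66, Vwa3b at -6.62, Mcemp1 at -6.03 and Amot at -5.75. Macrophage genes were positive, with C1qa at 7.09, C1qb at 3.59, Csf1r at 2.51, Vcam1 at 1.76 and Lyz2 at 1.19, and so were Aqp1 at 8.85, Hcar2 at 6.29, Gpr35 at 3.54 and Plxnb2 at 2.84. Aqp1, C1qa and Hcar2 had 0 counts in 500 T cells, Scn1a and Vwa3b had 0 in 0.5 ng RNA and Mcemp1 had 0 in 1000 T cells, so these 6 sizes are no bounds either. In the comparison of 1000 cells with 1 ng, Vwa3b lost its call in 8 of the 15 alternatives that tested it and Scn1a in 3 of 15. Amot was not called there. Igha in 500 T cells (2408 ± 75.7 CPM, SD, n = 3) exceeded Igha in 0.5 ng RNA (1057 ± 80.0 CPM), the reverse of 1000 cells.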

How the results depend on the processing

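The count of genes called, 5066 as reported, ran from 4040 (stricter filter on low counts) to 7335 (DESeq2), and from 4802 to 5279 with 1 library left out. Similar counts hid some change of genes. With all groups in 1 fit 4693 genes were called, which held 3425 (67.6%) of the reported 5066. Genes called lower then numbered 1849, against 2525 as reported. With 1 library left out 83.5% to 87.9% of the reported calls were kept. Genes called higher numbered 2541 as reported, 3835 with no filter and 4579 with DESeq2. With the replicate number as a block the model called 4770 genes (2326 higher and 2444 lower), and among the list counts only that of alpha chain segments, at 2, moved by over 1.5 times. No named gene changed direction past the threshold in any of the 17 alternatives, while 34 of 318 lost their call with all groups in 1 fit, the most of any alternative, and 8 lost it with the block, among them Ccr4 (2.26, adjusted p = 0.0625). Leaving out the Gm10800 group, chosen after seeing the data, gave 5079 calls. In the list directions in which 0 members were called (17 lists higher, 5 lists lower), 1 gene passed at an unadjusted p under 0.05, 1 with DESeq2 and 0 with voom. List counts that moved were these. With no filter: oxidative phosphorylation lower 5, proteasome lower 7, alpha chain segments higher 18, odorant and pheromone receptors higher 677. With the stricter filter: platelet lower 6, mast cell lower 2, stroma higher 3, histone lower 5, alpha chain segments 1, receptors 7, collagen 4, potassium channel 4. With DESeq2: stroma 11, alpha chain segments 22, receptors 660. With all groups in 1 fit: regulatory T higher 6, interferon higher 11, glycolysis lower 4, ribosomal higher 25, oxidative phosphorylation 1, proteasome 1, histone 8, alpha chain segments 8, receptors 553. Thinned to a common depth: glycolysis 5, histone 8, alpha chain segments 3, receptors 71. With counts divided by 2: platelet 6, mast cell 3, histone 7, alpha chain segments 1, receptors 26, collagen 9, potassium channel 7. With 1 library left out: alpha chain segments 6 to 9, receptors 217 to 268, glycolysis 5 to 7, oxidative phosphorylation 1 to 4, proteasome 2 to 5, histone 6 to 16, stroma 5 to 10, interactions beside 10000 cells 111 to 294 and beside 500 cells 96 to 181. The cause of these moves was not tested, except that looser or stricter filters test more or fewer genes. The difference in genes detected was 3345 as reported, 1491 at 10 counts and 2979 without thinning. At this depth 5 of 108 alpha segments, 24 of 68 histone genes and 137 of 1464 receptor genes had enough counts for the test.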

Other observations

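Genes outside the lists, picked after their values were seen, added to both sides of the contrast. Higher in T cells were Dgka, a lipid kinase that restrains receptor signalling in T cells, at 1406, 1313 and 1332 CPM in the T cell libraries and 299.8, 300.4 and 294 CPM in the RNA libraries (log2 fold change 2.17), Thy1, the pan-T cell antigen CD90 of mice, at 1.55, Cd96 at 2.38, Camk4 at 3.45, Vipr1, a neuropeptide receptor, at 2.90, and Tnfrsf25, the death receptor DR3, at 2.65. All 6 had 3 T cell libraries above 3 RNA libraries, where 26.1% of genes tested did. They were picked with these values known, so this is no support of its own. Als2cl, less studied in lymphocytes, was at 392, 376 and 437 CPM in the T cell libraries and 29.6, 53.6 and 45.0 CPM in the RNA libraries, with a log2 fold change of 3.22 (SE 0.15, adjusted p = 2.61e-15).

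Other genes were lower in T cells. Cybb, the catalytic subunit of the phagocyte oxidase, was at 19.9, 11.8 and 18.4 CPM in the T cell libraries and 860.0, 772 and 929 CPM in the RNA libraries, with a log2 fold change of -5.70 (SE 0.13, adjusted p = 1.97e-21). Apoe, which carries lipids out of macrophages, had -4.86, Scd1, a fatty acid desaturase, had -4.54, and C3, the central complement protein, had -5.96. Plcg2, the phospholipase of the B cell receptor, had -4.31, Mef2c had -4.04, and Spi1, PU.1, the factor of myeloid and B cells, had -3.88. Gm10800, a repeat-like predicted gene, was at 54696, 54325 and 55874 CPM in the T cell libraries and 3646, 3779 and 4189.6 CPM in the RNA libraries, with a log2 fold change of 3.82 (SE 0.04, adjusted p = 4.39e-29).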
